A study of Mus musculus with 6 samples.

Results

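Foxd1, Meis1, Meis2, Tcf21, Zeb2, Snai2, Alx1, Ebf1 and Foxc1 are transcription factors of the renal stroma and of mesenchyme in general. Every probe annotated to 1 of these 9 genes was followed in mouse kidneys at E18.5, late in gestation, whose stroma had lost Dicer. The array names 19054 genes in all. The 9 genes were represented by 20 probes, of which 13 had signal in enough pools to be tested, and each gene had at least 1 tested probe. Of the 9 genes, only Snai2 was called through its brightest probe, 1.50-fold lower in mutant kidneys, and a dimmer Meis1 probe was also called, 1.67-fold lower. The lowest change of the 9 was that of Zeb2, a mutant level 1.81-fold below control that did not pass the threshold (limma, adjusted p = 0.087). Foxd1 and the brightest probes of Meis1 and Meis2 moved in opposite directions in different litters.

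Whole kidneys were profiled on Illumina MouseWG-6 BeadChips, which measure messenger RNA by the brightness of probes that bind labelled cRNA. The 3 mutant pools, labelled FoxD1;Dicer, were FoxD1GC;Dicerfl/fl embryos, and the 3 control pools were Cre-negative littermates. Each pool held the kidneys of 2 embryos of a single genotype, and each of 3 litters gave 1 pool of each genotype. FoxD1GC places a fusion of eGFP and Cre recombinase under the endogenous FoxD1 locus, and the Cre cuts an exon out of Dicer in stromal cells and their descendants. Dicer is the RNase that miRNAs need to mature. Cells in which the Cre was never active keep Dicer. The paper names podocytes as cells that also express FoxD1GC, so podocytes cannot be taken to keep Dicer. It also speculates that Cre excision may be mosaic. Per the study's methods, the FoxD1GC line was kept on a 129-Elite background and the Dicerfl/fl line on C57BL/6J, and the sources used here do not give the Dicer genotype of the Cre-negative controls. The mutant pools therefore differed from the controls in the engineered FoxD1 allele as well as in Dicer, and effects of these cannot be told apart.

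The embryonic renal stroma lies around the nephron progenitors and between the tubules, and gives rise to interstitial fibroblasts, pericytes, mesangial cells and vascular smooth muscle. Foxd1 is the forkhead factor that defines its progenitors. Meis1 and Meis2 are homeodomain factors of the TALE class that work with Pbx partners, and Tcf21 is a basic helix-loop-helix (bHLH) factor that pairs with E proteins. Snai2 and Zeb2 are zinc finger repressors of epithelial genes such as Cdh1, the gene of E-cadherin. Alx1 is a paired-type homeodomain factor of mesenchyme, Ebf1 a factor known from B cell development that is also made by stromal cells, and Foxc1 a forkhead factor of mesenchyme and podocytes.

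The link between Dicer and these factors that is best known from textbooks is the miR-200 family, which is made by Dicer and represses Zeb2 and its relative Zeb1 in epithelial cells. The mature sequences are shown because their seeds, bases 2 to 8 in capitals, define the pairing with a target. They come from RefSeq (GRCm38.p6), and the miRNAs themselves were not measured on these arrays. The first 3 share the seed AAUACUG and the other 2 share AACACUG.
mmu-miR-200b-3p: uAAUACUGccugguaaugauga
mmu-miR-200c-3p: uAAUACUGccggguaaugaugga
mmu-miR-429-3p: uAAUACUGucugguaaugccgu
mmu-miR-200a-3p: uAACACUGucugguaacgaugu
mmu-miR-141-3p: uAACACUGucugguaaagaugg

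The Foxd1 promoter is shown because the same locus drives the Cre. The 250 bases before the RefSeq start of Foxd1 (GRCm38.p6, chr13:98353995-98354244, plus strand) hold 1 copy of the Meis binding hexamer TGACAG, printed in capitals.
Foxd1 promoter: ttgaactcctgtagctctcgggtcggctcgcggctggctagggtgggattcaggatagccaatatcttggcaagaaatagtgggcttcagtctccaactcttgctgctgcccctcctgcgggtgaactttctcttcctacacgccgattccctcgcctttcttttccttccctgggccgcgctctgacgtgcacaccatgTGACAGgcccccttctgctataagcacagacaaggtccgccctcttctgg
Of 32851 RefSeq promoters of this length, 15.9% held TGACAG on either strand. The hexamer CAGGTG of the Snail and Zeb factors was in 17.2% and the forkhead core TAAACA in 12% of them, and the Foxd1 promoter held neither. RefSeq promoters were matched for 7 of the 9 genes, with 11 start sites, and no entry of Meis1, Meis2, Tcf21, Zeb2, Ebf1 or Foxc1 held any of the 3 hexamers. A match is a stretch of letters and not a bound site.

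Values are log2 intensities after background correction and quantile normalization, a change is FoxD1GC;Dicerfl/fl minus control with its standard error (SE), and the test is limma with litter as a block. A probe counts as detected in a pool at a detection p under 0.01 and was tested if detected in at least 3 of the 6 pools. It is called at a Benjamini-Hochberg adjusted p under 0.05 over all 16899 tested probes, and a gene is called through its brightest tested probe. By this rule 1 of the 9 genes was called, where 5.56% of the 9921 tested genes were. That gene was lower, as were 3.15% of all tested genes, and 0 of the 9 were called higher, where 2.41% of all genes were. At an unadjusted p under 0.05 in limma, 3 of the 9 (Snai2, Zeb2 and Tcf21) were lower and 0 were higher, where 10.2% and 9.99% of all tested genes were. Counts at an unadjusted p under 0.05 for other gene lists are read against the same shares. By probe 2 of 13 were called, both lower, where 4.87% of all tested probes were called and 2.82% were called lower. Of the 20 probes, 11 were detected in all 6 pools and 7 in none. The 7 undetected probes were 4 of the 5 for Zeb2 and 1 each for Meis1, Meis2 and Ebf1.

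Facts of the arrays frame these values. Between 35.7% and 37.7% of probes were detected per array, and the median intensity ranged from 100.3 to 107.6. Dicer1, the gene of the deleted exon, had 3 probes, of which 1 was lower in the mutant (-0.63 ± 0.13, adjusted p = 0.045), 1 changed by -0.28 ± 0.11 (adjusted p = 0.24) and 1 was not detected in any pool, and the position of the probes relative to the deleted exon was not examined. Eif2s3y, a Y-linked gene, was detected in both pools of litter 1, in the litter 2 control alone and in neither pool of litter 3, so the sexes of the embryos were not matched within litter 2. Among 8 markers of stroma and interstitium, Col1a1 (-0.83), Pdgfra (-0.55) and Pdgfrb (-0.85) were called lower (adjusted p = 0.024, 0.045 and 0.041), all 8 had a change below 0, and the median was -0.53. Their summed intensity on the linear scale of the normalized values was 4909 to 5655 in controls and 3219 to 5003 in mutants. These ranges overlapped, but they leave out the pairing by litter. By their brightest probes, Col1a1, Pdgfra, Pdgfrb, Col3a1, Dcn and Lum were lower in every litter. Col1a2 rose in litter 3 (0.31) and Vim in litter 1 (0.02). In whole kidney, fewer stromal cells and less RNA per stromal cell cannot be told apart for any of the values that follow.

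**Figure D1:**
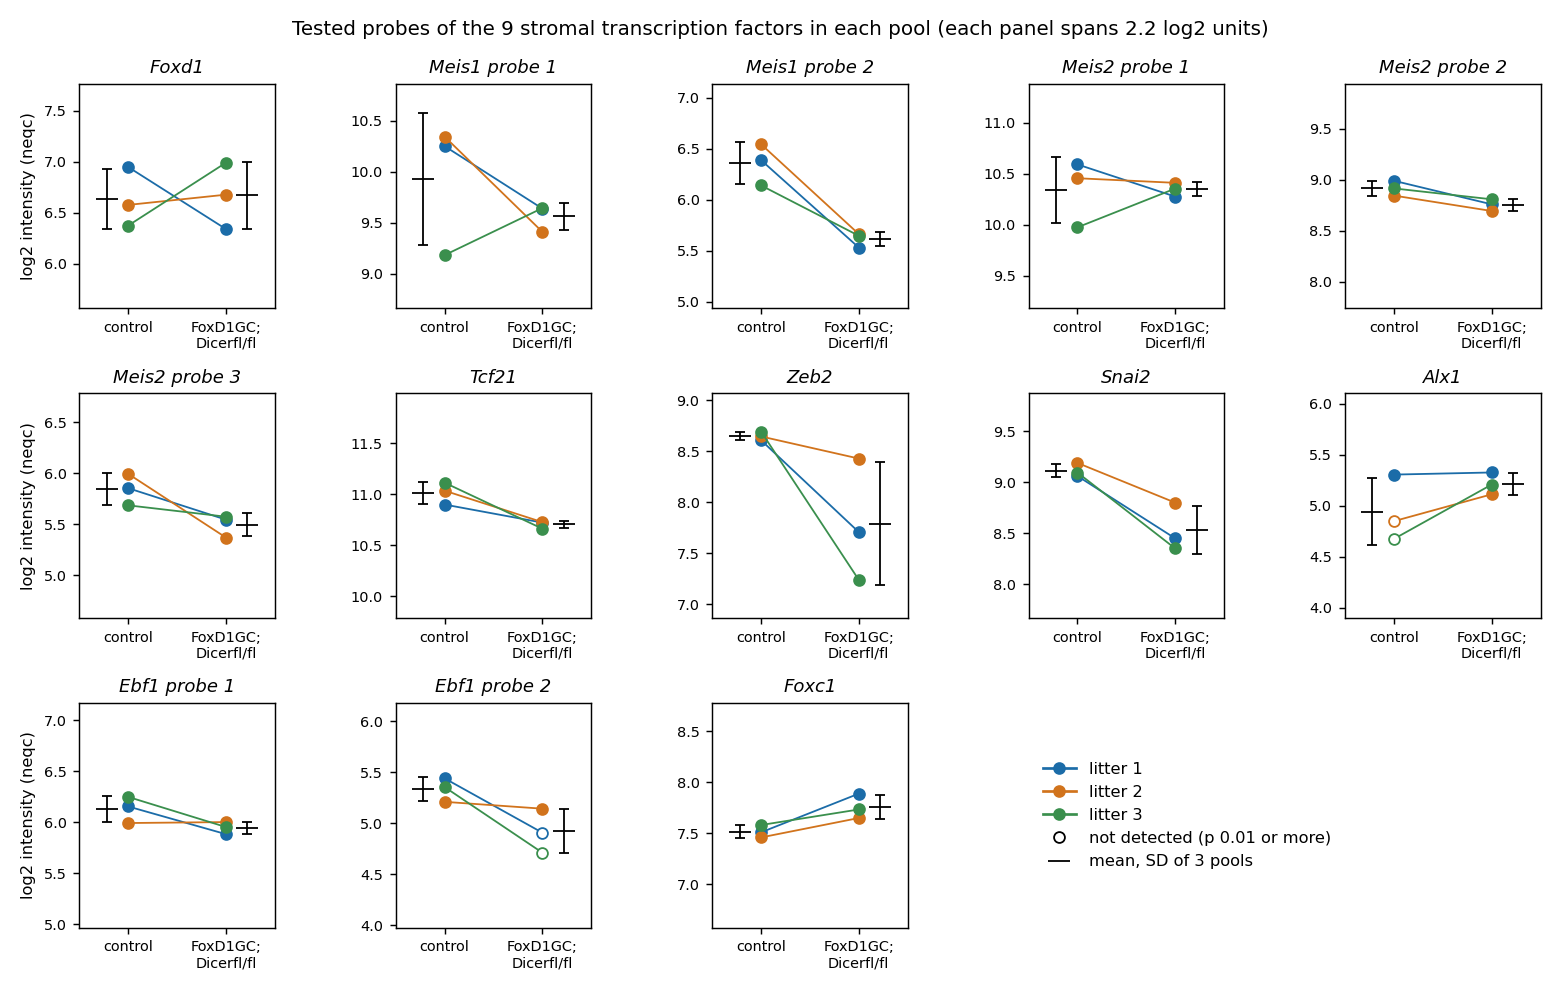
Each panel shows a tested probe, with log2 intensity after normalization on the vertical axis and the control and FoxD1GC;Dicerfl/fl pools on the horizontal axis. Coloured lines join the pools of a litter, open points mark pools where the probe was not detected, and black bars give the mean and SD of 3 pools. Mutant pools lie below the control of their litter in all 3 litters for the probes of Snai2, Zeb2 and Tcf21 and for Meis1 probe 2, and the lines of Foxd1 cross.

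On these arrays Foxd1 showed no common direction. Its single probe (ILMN_2706755) was detected in all 6 pools, and its log2 levels in controls, here and below in the order of litters 1, 2 and 3, were 6.95, 6.58 and 6.37. In mutants they were 6.34, 6.68 and 6.99. The groups overlapped throughout, the control of litter 1 and the mutant of litter 3 being the highest pools of each group. The litter changes were -0.61, 0.10 and 0.62, and their mean was 0.04 ± 0.22 (limma, adjusted p = 0.95). The 95% interval of the difference ran from -0.48 to 0.55, or 0.716-fold to 1.47-fold, which includes changes in either direction. Without litter 3 the change was -0.25 and without litter 1 it was 0.36. The FoxD1GC allele sits in this gene (GRCm38.p6, chr13:98354245-98356705), and whether the probe reads RNA from that allele was not examined. Of all tested genes, 30.4% had a control level at or below that of Foxd1. By quantitative PCR of E18.5 kidneys the study reported lower FoxD1 transcripts, and by staining fewer FoxD1-positive cells. The probe did not show that fall, and the reason was not tested.

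Decorin (Dcn), a stromal proteoglycan gene that Foxd1 is known to repress in the cortical stroma, was measured as well. Its brightest probe changed by -0.39 ± 0.13 (limma, adjusted p = 0.17), with litter changes of -0.09, -0.47 and -0.60. Of its other 2 tested probes, the dimmer (ILMN_2604695) was called lower (-0.83 ± 0.14, adjusted p = 0.026) and the brighter (ILMN_2596346) was not (-0.33 ± 0.12, adjusted p = 0.19). Among 11 other forkhead genes, 4 passed the filter, none was called and all 4 had changes above 0, with a median of 0.28. At an unadjusted p under 0.05, 1 of the 4 was higher. Foxc2, the closest relative of Foxc1, changed by 0.23 (adjusted p = 0.33), and 6 of the 11, among them Foxd3, Foxf1 and Foxf2, were detected in no pool.

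Meis1 gave different answers through its probes. The brightest (ILMN_1218266) stood at 10.25, 10.34 and 9.18 in controls and 9.64, 9.41 and 9.64 in mutants. The low control of litter 3 lay below all 3 mutant pools, and the other controls lay above them. The litter changes were therefore -0.61, -0.93 and 0.46, with a mean of -0.36 ± 0.25 (limma, adjusted p = 0.48, 95% interval -0.96 to 0.23). The same control pool stands out in the deposited intensities, at 708 against 1331.3 and 1292.5 in the other controls and 795.7 to 854.9 in the mutants. Without litter 3 this probe was called (-0.77, adjusted p = 0.022). Without litter 1 its change was -0.24 (adjusted p = 0.749) and without litter 2 it was -0.08 (adjusted p = 0.944, the highest over its alternatives).

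The dimmer Meis1 probe (ILMN_1248401) fell in every litter. Controls were at 6.39, 6.55 and 6.14 and mutants at 5.53, 5.66 and 5.65, so the groups did not overlap. Its signal in mutants was low, with deposited intensities of 128.3, 140.5 and 125.2 where the array medians were 105.3, 107.6 and 100.3. The change was -0.74 ± 0.12 (limma, adjusted p = 0.020, 95% interval -1.03 to -0.45), or 1.67-fold lower. Its litter changes, -0.86, -0.88 and -0.49, were smallest in litter 3. In the authors' processed log2 values, a scale that is narrower at low signal, the change was -0.23 (adjusted p = 0.065). Controls were at 7.19 to 7.34 there, and those of the undetected Meis1 probe at 6.77 to 6.85. Without litter 1 or litter 2 the adjusted p of the dimmer probe was 0.072 and 0.195, the latter the highest over its alternatives, whose lowest was 0.0021. Counted through any tested probe, Meis1 joins Snai2 and 2 of the 9 genes were called, against 6.13% of all genes by that rule. The remaining Meis1 probe was detected in no pool, and which Meis1 transcripts each probe reads was not examined.

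Meis2, which resembles Meis1 closely, was not called through any probe. Its brightest probe (ILMN_2850391) was at 10.59, 10.46 and 9.97 in controls and at 10.28, 10.41 and 10.35 in mutants, and the lowest pool was again the control of litter 3. The litter changes were -0.32, -0.05 and 0.38, the mean was 0.01 ± 0.15 (limma, adjusted p = 0.99) and the interval ran from -0.35 to 0.36. The middle probe was lower in all 3 litters (-0.16 ± 0.10, adjusted p = 0.43), and so was the dimmest detected probe (-0.35 ± 0.13, adjusted p = 0.20), each without overlap between groups. The brightest and the other tested probes of Meis2 thus differed in pattern, as those of Meis1 did, and the fourth was detected in no pool. The control pool of litter 3 was the lowest control on the probes of Foxd1 and Alx1 and on both tested Meis1 probes. It was also the lowest on the brightest and the dimmest detected Meis2 probes. The same pool was the highest control on the probes of Tcf21, Foxc1, the detected Zeb2 probe and the brighter Ebf1 probe.

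Among the TALE partners and relatives of the Meis factors, 6 genes were tested. None was called by limma, 2 were higher at an unadjusted p under 0.05, and 5 of the 6 had a change above 0, with a median of 0.20. Tgif1, a TALE repressor, had the largest of these changes, 0.37 (limma, adjusted p = 0.23), and Pbx2, a partner of Meis proteins, changed by 0.22 (adjusted p = 0.32).

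**Figure D2:**
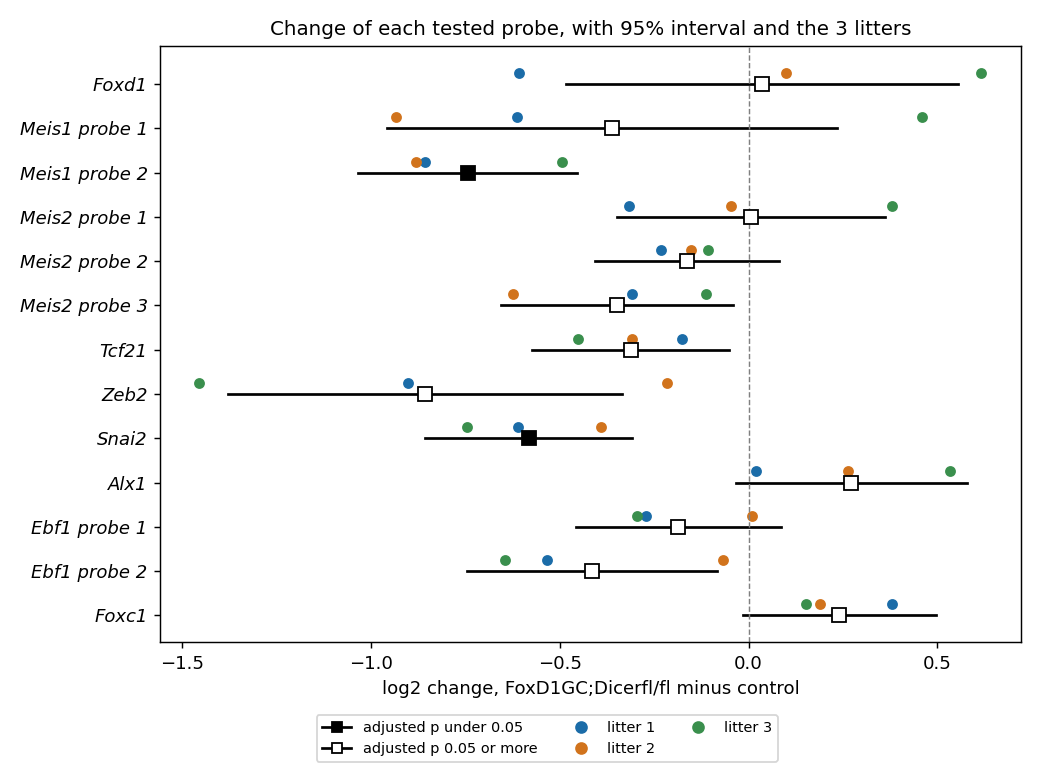
The horizontal axis gives the log2 change, FoxD1GC;Dicerfl/fl minus control, for each of the 13 tested probes. Squares with lines are the limma estimate and its 95% interval, filled at an adjusted p under 0.05, and coloured points are the 3 litters. Snai2 (-0.58) and the second Meis1 probe (-0.74) are filled, and the litters of Foxd1 spread from -0.61 to 0.62.

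Tcf21, which is made by stromal cells and by podocytes, was lower by a small amount in each litter. Its single probe (ILMN_2930707) was at 10.90, 11.03 and 11.11 in controls and 10.72, 10.73 and 10.66 in mutants, and every mutant pool lay below every control. The litter changes were -0.18, -0.31 and -0.45, and the mean was -0.31 ± 0.11, or 1.24-fold lower, which did not pass the threshold (limma, adjusted p = 0.18, 95% interval -0.57 to -0.05). Across the 9 genes the groups did not overlap in 3 that were lower (Tcf21, Zeb2 and Snai2) and in 1 that was higher (Foxc1), where 25.8% of all tested genes did not overlap. Of the 11 probes detected in all 6 pools, 6 were lower without overlap, against 11.3% of all tested probes detected in all pools. The 4 tested podocyte markers had a median change of 0.03, with none called and 0 at an unadjusted p under 0.05, and a summed intensity of 2261 to 2463 in controls and 2447 to 2633 in mutants.

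The bHLH partners and relatives of Tcf21 were 7 tested genes of 9, with none called and 2 lower at an unadjusted p under 0.05. Tcf4, an E protein that pairs with bHLH factors, changed by -0.10 (limma, adjusted p = 0.69). Twist1 and Twist2, bHLH factors of mesenchyme, changed by -0.39 and -0.45, each with an adjusted p of 0.10, and both were lower in all 3 litters. Hand1 and Hand2 were detected in no pool, and the median over the 7 was -0.10.

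Snai2, also called Slug, fell in every litter. Its probe (ILMN_2647563; the gene lies at chr16:14705852-14709395 in GRCm38.p6) was at 9.06, 9.19 and 9.10 in controls and at 8.45, 8.80 and 8.35 in mutants. The control pools lay within a narrow band above all mutant pools, among which litter 2 was the highest. The deposited intensities were 627.2, 623 and 670.3 in controls and 417, 592.8 and 374.7 in mutants. The change was -0.58 ± 0.12 (limma, adjusted p = 0.040, 95% interval -0.86 to -0.31), or 1.50-fold lower, with litter changes of -0.61, -0.39 and -0.74. Leaving out litter 1, 2 or 3 raised the adjusted p to 0.118, 0.158 and 0.089, with changes between -0.68 and -0.50. The authors' processed values gave an adjusted p of 0.013, and the range over all alternatives was 0.0047 to 0.158.

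Zeb2, known also from myeloid and endothelial cells, had the lowest change of the 9 genes and the widest spread among mutant pools. Its detected probe (ILMN_1232121; gene at chr2:44983512-45117442 in GRCm38.p6) was at 8.61, 8.65 and 8.69 in controls. In mutants it was at 7.71, 8.43 and 7.24, with litter 2 nearest to the controls and litter 3 furthest from them. The SD over 3 pools was 0.04 in controls and 0.60 in mutants. The deposited intensities make the same point, at 475, 455.2 and 525.3 in controls and 281, 478.3 and 215.9 in mutants. The mean change was -0.86 ± 0.22, or 1.81-fold lower (limma, adjusted p = 0.087, 95% interval -1.38 to -0.34). Without litters 1, 2 and 3 it was -0.84, -1.18 and -0.56, with adjusted p of 0.181, 0.092 and 0.131. Of the 9921 tested genes, 1.53% had a change at or below that of Zeb2 and 3.44% at or below that of Snai2. The remaining 4 Zeb2 probes were undetected, with detection p from 0.0128 to 0.871.

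Markers of other cell types that make Zeb2 were read beside it. Of 5 tested macrophage and leukocyte markers, C1qa, C1qb, Adgre1 and Csf1r rose, and the median change of the 5 was 1.05, opposite in sign to Zeb2. Their summed normalized intensity was 531 to 702 in controls and 976 to 1291 in mutants, while Ptprc was detected in no pool. Of 5 tested endothelial markers, none was called and 0 had an unadjusted p under 0.05. Their median change was -0.09, their summed intensity was 2714 to 3056 in controls and 2658 to 2872 in mutants, and Kdr was detected in no pool. The part of these cells in the Zeb2 value was not tested.

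Of 6 tested relatives and targets of Snai2 and Zeb2, none was called, and 1, Cdh1, had an unadjusted p under 0.05. Zeb1, the paralog of Zeb2, changed by -0.25 (limma, adjusted p = 0.31), and Snai1, the paralog of Snai2, by -0.06 (adjusted p = 0.80). Cdh1, the epithelial target of these repressors, was at 9.36, 9.34 and 9.19 in controls and 9.73, 9.73 and 9.79 in mutants, a change of 0.45 ± 0.11 (adjusted p = 0.073) with no overlap. Vim, which marks mesenchymal cells, changed by -0.26 (adjusted p = 0.32). Cdh2 changed by -0.21 (adjusted p = 0.65) and was detected in 3 of the 6 pools. Its litter changes of 0.49, -0.62 and -0.51 differed in sign. Of 4 tested kidney epithelial markers, Aqp2 (-1.62) and Lrp2 (-1.47) were called lower (adjusted p = 0.0029 and 0.0015). Umod (-0.72, adjusted p = 0.11) and Slc12a1 (-0.14, adjusted p = 0.57) were not called, and dimmer Slc12a1 probes changed in either direction. By their brightest probes all 4 were below 0, while Cdh1 was above 0, and Calb1 was detected in no pool. Whether the Cdh1 value reflects these repressors or the mix of cells was not tested.

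Alx1 and the dimmer tested Ebf1 probe were near the limit of detection. The Alx1 probe (ILMN_2686652) was at 5.31, 4.85 and 4.68 in controls, detected only in litter 1, and at 5.33, 5.11 and 5.21 in mutants, detected in all 3. The change was 0.27 ± 0.13 (limma, adjusted p = 0.30, 95% interval -0.03 to 0.58), and the groups overlapped. The probe passed the filter through the mutant pools, in which it was higher, so its direction was in part fixed by the filter.

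Ebf1 had 2 tested probes, and neither was called. The brighter (ILMN_1245076) was at 6.15, 5.99 and 6.25 in controls and 5.88, 6.001 and 5.95 in mutants, with a change of -0.19 ± 0.11 (limma, adjusted p = 0.42) and overlapping groups. The dimmer (ILMN_2707452) was detected in 3 controls but in 1 mutant pool, that of litter 2. It was at 5.44, 5.21 and 5.35 in controls and 4.91, 5.14 and 4.71 in mutants, a change of -0.41 ± 0.14 (adjusted p = 0.16). It passed the filter through the control pools, in which it was higher, so its direction too was in part fixed by the filter. Ebf1 is also made by B cells and fat. By their brightest probes the 3 tested B cell markers had a median change of 0.27, with none called and 2 higher at an unadjusted p under 0.05. A dimmer Cd79b probe was called higher (0.57, limma, adjusted p = 0.043), and a dimmer Blnk probe was not called (0.60, adjusted p = 0.20). Adipoq, Fabp4 and Plin1, which mark fat, were detected in no pool. Relatives of Alx1 and Ebf1 that were tested were Ebf3 and Prrx1, each with a change of -0.16 (adjusted p = 0.61 and 0.45).

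Foxc1, a forkhead factor, was the only 1 of the 9 whose mutant pools all lay above all control pools. Its probe (ILMN_2886260) was at 7.51, 7.46 and 7.58 in controls and at 7.89, 7.65 and 7.73 in mutants, all detected. The litter changes were 0.38, 0.19 and 0.15, and the mean was 0.24 ± 0.11, or 1.18-fold higher (limma, adjusted p = 0.28, 95% interval -0.01 to 0.50).

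Taking the brightest probe of each gene, 5 of the 9 had a change below 0, where 47.9% of all tested genes did, and 3 of the 9 were lower in all 3 litters, against 21.0% of all genes. The median change of the 9 was -0.19, and over all tested genes it was 0.01. Without litters 1, 2 and 3 the median of the 9 was -0.14, -0.08 and -0.24. On the narrower scale of the authors' processed values it was -0.06. Among 12 other tested factors of stroma and mesenchyme, 9 were below 0, the median was -0.26, and Nfatc4, a factor of calcium signalling, was called (-0.63 ± 0.11, adjusted p = 0.025). Of the 5 nephron progenitor markers, Cited1 and Eya1 were called higher (0.52 and 0.64, limma, adjusted p = 0.042 and 0.032). Six2 (0.56, adjusted p = 0.056), Meox1 (0.02, adjusted p = 0.96) and Crym (-0.01, adjusted p = 0.98) were not called. Over 13 alternatives Cited1 was called in 6 and Eya1 in 9.

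**Figure D3:**
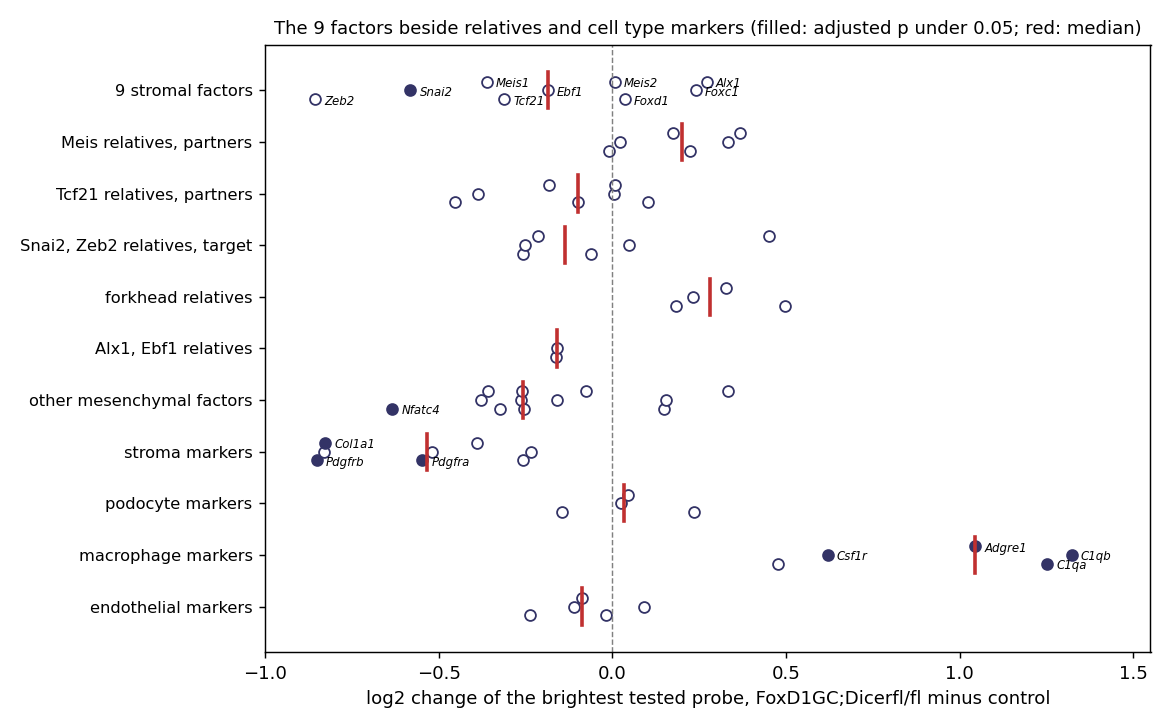
The horizontal axis gives the log2 change, FoxD1GC;Dicerfl/fl minus control, of the brightest tested probe of each gene, with a row per gene list. Filled points had an adjusted p under 0.05 and red bars are list medians. The 9 factors run from -0.86 to 0.27 around a median of -0.19 (-0.24 to -0.08 with a litter left out), stroma markers have a median of -0.53 and macrophage markers of 1.05.

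Zeb2 was called with an offset of 50 in the background correction, with each array scaled to its median and with an intensity trend in the prior. The adjusted p ran from 0.00014 to 0.023 in these, and up to 0.248 over all its alternatives. The lowest came from the median scaling, where an infinite prior gave all probes the same SE of 0.18, whatever their own spread. With scaling to the median of the tested probes the adjusted p was 0.107. Tcf21 was called with the trend (adjusted p = 0.036) and under no other alternative, with an adjusted p of up to 0.486. The study used a B-statistic above 0 as its threshold. In the fit made here 1 of the 13 tested probes passed it, where 2.85% of all tested probes did. That was the dimmer Meis1 probe, with a B of 0.14, and none of the 9 genes passed through its brightest probe. The paper lists Meis1 among the stroma-associated genes that were reduced on its E18.5 arrays, and its main text does not name the probe. Its fit started from differently processed values, so counts by this threshold need not match.

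**Figure D4:**
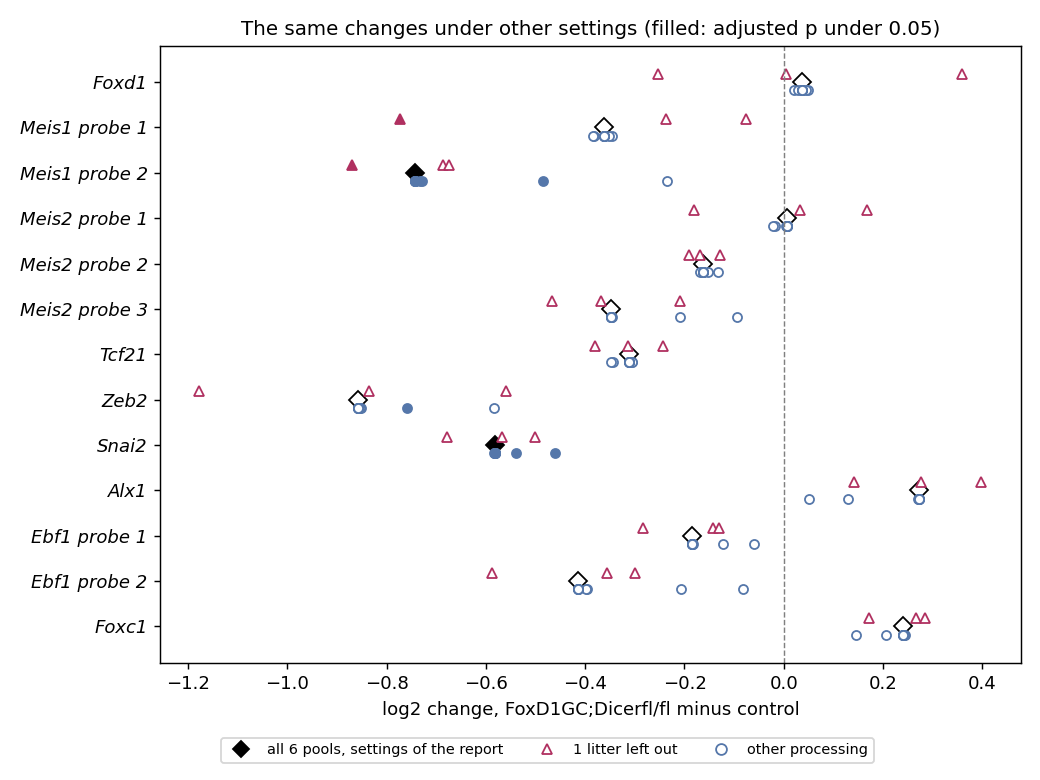
The horizontal axis gives the log2 change of each tested probe with all 6 pools (diamonds), with a litter left out (triangles) and under other processing (circles), filled at an adjusted p under 0.05. The Foxd1 triangles run from -0.25 to 0.36, on both sides of 0, while all Snai2 marks lie between -0.68 and -0.46.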

How the data were processed

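RNA of whole kidneys was hybridised to Illumina MouseWG-6 v2.0 arrays, 1 per pool. The deposited table holds a signal intensity, not normalized, and a detection p-value, set against the negative controls of the array, for each probe and pool, per the file headers. The authors' processed log2 values, made with lumi per the study's methods, served as an alternative. They ranked the probes of each array as the intensities did, their column medians were 6.82 to 6.83, and the steps within lumi are not given in the sources used here. The median SE in the authors' values was 0.057. Sizes of change in them, above all for dim probes, are not on the same scale as those of the main fit.

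Of 45281 rows, 8 damaged rows were left out. The annotation gave 1 symbol to 34877 of 45273 probes, several to 18 and none to 10378, and 34799 of the named probes were in the RefSeq table (GRCm38.p6). Intensities were background-corrected, quantile normalized and log2-transformed with neqc (offset 16) in limma 3.58.1 under R 4.3.3. Probes with a detection p under 0.01 in at least 3 of 6 pools entered lmFit and eBayes. Litter was a block in the model, a term the study's methods also used. Residual degrees of freedom were 2, to which the prior added 4.76. Having 6 arrays limits the precision (median SE 0.12). SEs and intervals are moderated towards the prior shared by all probes. Pools of 1 litter deviated together from their group means (correlations 0.19, 0.18 and 0.14), and the pairing comes from the litter in the labels.

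The genes, gene lists and alternatives were chosen with earlier results of these data known. All probes of the 9 genes are described. Other genes are named where called, or where a relative or partner of the 9 is discussed. Lists are given as counts and medians with no set test. The code was tested on simulated data. Alternatives were other normalizations, offsets, filters, priors and call rules, the mean over probes, no litter block and each litter left out.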

Additional observations from a re-analysis of the deposited data

How the results depend on the processing

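The 13 tested probes gave 167 values over 13 alternatives, of which 149 kept direction and side of the threshold. The number of the 9 genes called, all of them lower, was 1. It was 2 (Snai2 and Zeb2) with each array scaled to its median over all probes, which gave an infinite prior, or with an offset of 50, and 3 (with Tcf21) with an intensity trend. It was 0 without a filter on dim probes, which tested more genes, 0 by the B-statistic, and 0 with scaling to the median of the tested probes, an alternative chosen after seeing the data, where Snai2 had an adjusted p of 0.053. Counting any probe, it was 2. With a litter left out it ranged from 0 to 1, and without litter 3 the gene called was Meis1 in place of Snai2. Genes called on the whole array ranged from 44 without litter 2 to 865 with the trend, and were 265 without a filter. With no replicate block 1 of the 9 genes, Snai2, was called, and leaving the block out changed no call of the 9. The median change of the 9 genes was -0.24 to -0.08 with a litter left out and -0.30 with the mean of probes. On the narrower scale of the authors' processed values it was -0.06. Sign changes among the 167 values were those of Foxd1, which ranged from -0.25 to 0.36 with a litter left out, and of the brightest Meis2 probe, which ranged from -0.18 to 0.17. The Meis2 probe was at -0.018 with each array scaled to the median of all probes and at -0.021 with scaling to that of the tested probes. The causes were not tested. Signals near background limit Alx1 and the dimmer Ebf1 probe most. The called Meis1 probe and the dimmest detected Meis2 probe also had low signals in mutants.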
